A study of Mus musculus with 6 samples.

Results

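The genes described here are 44 genes for neuropeptides and for the proteins that package and process them. They were chosen by name: 32 genes for peptide precursors, 6 for granins and 6 for processing enzymes and their inhibitor. All 44 have a row in the deposited table of 47937 rows, and 35 of them reached 10 counts in total over the 6 libraries and were tested among 20006 genes. The remaining 9 (Nppc, Iapp, Tac2, Tac4, Grp, Nmu, Ucn, Trh and Prok2) had between 0 and 9 counts in total, with at most 7 in any library, and were not tested.

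The tissue was the dorsal root ganglion (DRG), which holds the cell bodies of somatosensory neurons. RNA libraries came from ganglia at cervical, thoracic and lumbar levels of C57BL/6 mice aged about 2 months, 3 of them control and 3 Tlx3cko. By the labels the controls were wild type and the mutants Tlx3f/f;SNS-cre, which the paper writes as Nav1.8-Cre. Tlx3 is a homeobox transcription factor of sensory neurons, and the Cre acts only in neurons that express the sodium channel Nav1.8, most of them nociceptors, so other DRG neurons keep the gene. The paper used Tlx3F/F littermates as behavioural controls, and whether the sequenced controls carried floxed alleles is not given in the sources used here.

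Neuropeptides are cut from larger precursors inside dense-core vesicles. Granins help to form these vesicles, prohormone convertases cut the precursor, carboxypeptidases trim the cut ends, and an amidating enzyme finishes many of the peptides. In the DRG, calcitonin gene-related peptide (CGRP) and substance P mark peptidergic nociceptors, while natriuretic polypeptide b and somatostatin mark a population of itch-sensing neurons.

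Cartpt, Chgb, Pcsk1, Scg2 and Sst share a short sequence ahead of their start sites. Each holds TGACGTCA, the full cAMP response element (CRE) bound by CREB-family factors, within 250 bases before the RefSeq gene start. The following 30-base stretches are shown because they contain a textbook element of neuropeptide promoters, both in Sst, which fell in Tlx3cko DRGs, and in Cartpt and Chgb, which rose. The sequences are RefSeq's on GRCm38.p6, 5′ to 3′ on the strand of the gene, with the element in capitals.
Sst (chr16:23890874-23890903, minus strand): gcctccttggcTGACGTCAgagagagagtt
Cartpt (chr13:99900777-99900806, minus strand): ccggcgggcatTGACGTCAaacggcagcgg
Chgb (chr2:132781559-132781588, plus strand): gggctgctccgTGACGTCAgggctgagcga
Pcsk1 (chr13:75089768-75089797, plus strand): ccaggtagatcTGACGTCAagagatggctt
Scg2 (chr1:79440076-79440105, minus strand): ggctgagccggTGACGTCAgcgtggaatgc

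The element reads the same on both strands, and it was searched as these 8 letters alone. It begins 48 bases before the start in Sst, 68 in Scg2, 72 in Chgb, 78 in Pcsk1 and 112 in Cartpt. It was found in 6 of the 36 members with a promoter sequence (16.7%), these 5 and Ucn, and in 478 of 27025 genes with one (1.77%). Calcb, Penk, Pnoc, Grp, Npff, Crh, Vgf and Cpe had no promoter sequence and were not searched. For Sst, Cartpt, Chgb and Scg2 the GENCODE gene begins farther upstream, so that the stretch lies inside its span. A match is a description of the letters and says nothing about binding.

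The libraries held between 11458299 and 18775628 counts. Tlx3 (chromosome 11, 33200752 to 33203589) had 1828, 2262 and 2433 counts in replicates 1, 2 and 3 of the controls, against 1717, 1052 and 1475 in those of Tlx3cko. Values of 3 libraries are always given in this order below, and Tlx3cko mice are also called mutants. After TMM normalization, which scales each library to a common size of 14970767 counts, these were 2057 ± 173 (SD, n = 3) and 1495 ± 141 normalized counts without overlap (log2 fold change -0.46, SE 0.09, edgeR adjusted p = 0.0122). This call was lost without control library 2 or Tlx3cko library 2 or 3 and with a term for sex (edgeR adjusted p = 0.223). Against control library 3 alone the log2 fold change of Tlx3 was -0.38. Control libraries 1 and 2 had 591 and 493 counts of Xist and 0 of Ddx3y, while control library 3 and all Tlx3cko libraries had at most 2 of Xist and between 273 and 525 of Ddx3y, so the sexes were not balanced. Markers of sensory neurons were abundant in every library, and their summed level was 182400 to 193800 normalized counts in control and 197600 to 211000 in Tlx3cko DRGs. Of these 9 markers, Nefh (log2 fold change 0.36) and Scn10a (0.43) were called higher (edgeR), and their part in the rises reported below was not tested. The sympathetic neuron markers summed to between 379 and 443 normalized counts in controls and between 184 and 240 in mutants. Hand2 was at 0 in every library and Dbh and Slc6a2 reached 4 counts at most, whereas Phox2a had between 11 and 25 counts and Slc18a1 between 21 and 40 in every library, and Chrna3, which sensory neurons also express, was called lower (log2 fold change -1.24, edgeR). The spinal cord markers reached 11 counts at most in any library. The skeletal muscle markers summed to between 88.5 and 1779 normalized counts in control and between 1478 and 2776 in Tlx3cko libraries. Of these 5 markers, Myh4 was called higher (log2 fold change 2.87, edgeR), with a list median of 1.24, and the part of attached tissue in any member's value was not tested. In bulk DRG, fewer cells of a type and less RNA per cell cannot be told apart.

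Of the 35 tested members, 8 differed between the genotypes with an adjusted p below 0.05 (quasi-likelihood test of edgeR, Benjamini-Hochberg adjustment over all genes tested), which is 22.9% of them, where 4.25% of all genes tested did. Nppb, Sst, Penk, Scg3 and Cpe fell in Tlx3cko DRGs, where 2.56% of all genes tested were called lower. Calca, Cartpt and Chgb rose, where 1.69% were called higher. By sign alone, 15 tested members were lower and 20 higher, and their median log2 fold change was 0.09, beside a median of 0.00 over all genes tested. The normalized counts of the genotypes did not overlap in 14 tested members (6 lower and 8 higher), and such separation was seen in 19.7% of all genes tested (10.8% lower and 8.87% higher). The members were chosen with earlier results on these libraries known, so these shares are descriptions.

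**Figure D1:**
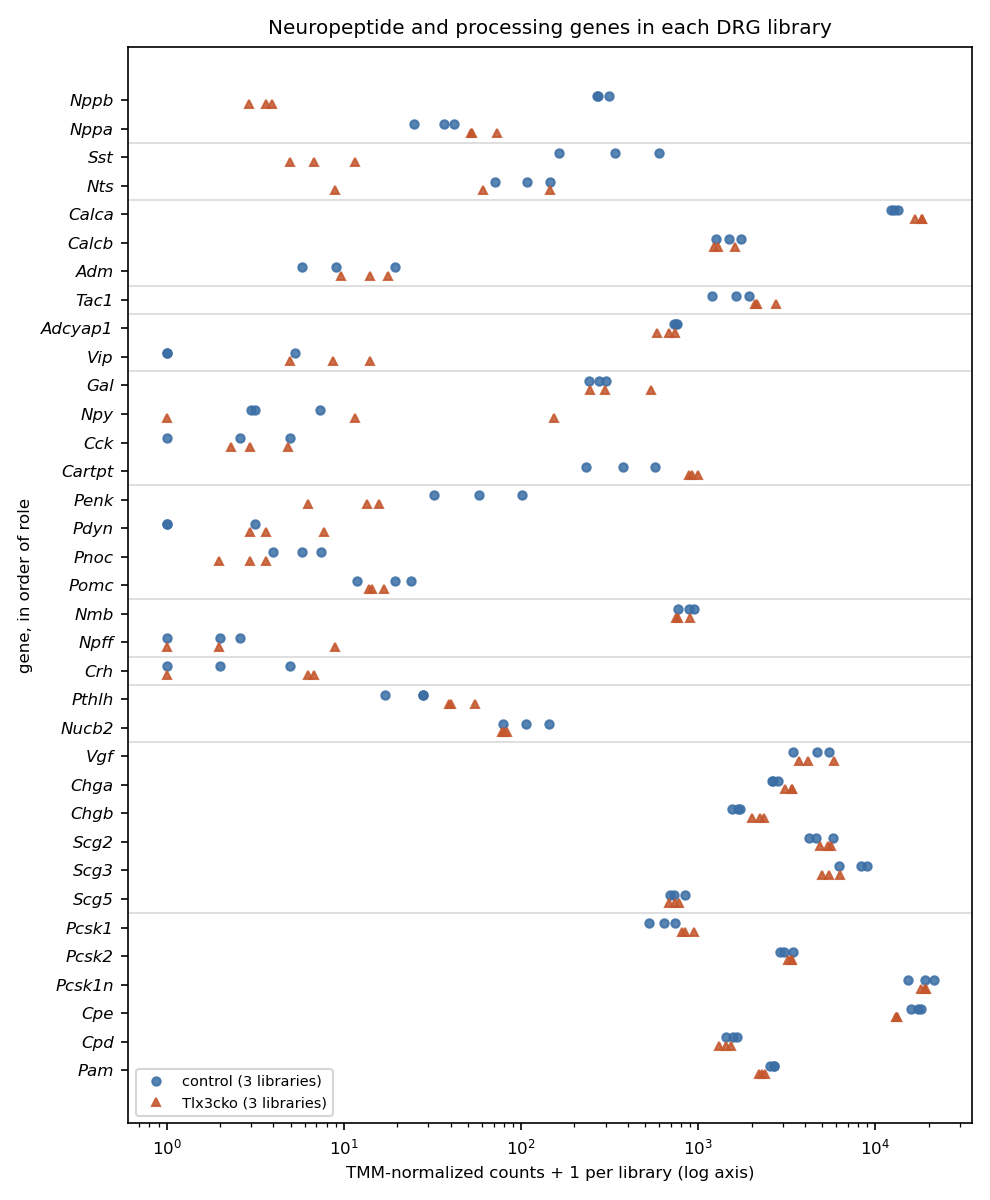
Normalized counts plus 1 of the 35 tested members in each of the 6 libraries, on a log axis, with genes ordered by role. Circles are the 3 control and triangles the 3 Tlx3cko libraries. The control circles of Nppb and Sst lie far to the right of the triangles, while the granins and processing genes at the bottom lie close together.

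Peptide genes covered a wide range of abundance in control DRGs. Per kb of annotated exon, the control means ran from 0.249 normalized counts for Pdyn to 8466 ± 1387 (SD, n = 3) for Pcsk1n among the tested members. Pcsk1n, which encodes an inhibitor of the convertase Pcsk1, was followed on this scale by Calca (7609 ± 349), Cpe (6550 ± 432), Scg3 (2850 ± 503), Scg2 (1942 ± 318), Vgf (1523 ± 344), Calcb (1186 ± 187), Nmb (1094 ± 111), Chga (974 ± 48.1) and Chgb (602 ± 32.2). The means of neighbours such as Pcsk1n and Calca, Vgf and Calcb, and Calcb and Nmb differed by less than the larger of their SDs. Of the 10 members highest per kb, 3 are peptide precursors and 7 are granins or processing genes. At the other end, 10 tested members had under 100 counts in every library, and 8 of these had under 30.

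Among the natriuretic peptides, Nppb fell to 0.881% of its control level in Tlx3cko DRGs. Nppb (ENSMUSG00000029019, chromosome 4, 147985788 to 147987205, plus strand) encodes natriuretic polypeptide b, a transmitter of itch signals. Counts of 251, 269 and 392 were seen in controls and 2, 2 and 3 in mutants. The control mean of 284 ± 24.9 normalized counts stood against 2.50 ± 0.525 (SD, n = 3 each), and the ratio of control to Tlx3cko was 115 with a 95% interval of 55.7 to 288 that covers counting error only. The log2 fold change was -6.77 (SE 0.27, edgeR adjusted p = 2.6e-08). The 3 control values were close to each other, so Nppb had both the largest fall among the members and a small spread between replicates. Nppa, the neighbouring gene of atrial natriuretic peptide, had 38, 36 and 30 counts in the controls, as against 54, 55 and 52 in the mutants. Its normalized counts were higher in every Tlx3cko library, but the log2 fold change of 0.80 (SE 0.30) did not pass the threshold (edgeR adjusted p = 0.209). The gene Gm13054 lies on the other strand over 61.5% of the exonic bases of Nppa, and reads of these genes cannot be told apart if the counting did not use strand, which is not stated. Nppc had 1 count in all.

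Somatostatin, an inhibitory peptide of itch-sensing neurons, also fell, from a less even control level. Sst (ENSMUSG00000004366, chromosome 16, 23889573 to 23890958, minus strand) had 313, 600 and 203 counts in controls against 6, 8 and 4 in mutants. The normalized counts were 338, 598 and 162 in control libraries 1, 2 and 3 and 5.78, 10.5 and 3.94 in the Tlx3cko libraries. Control library 3 held less than the other controls, yet the lowest control value was still far above the highest Tlx3cko value. The means were 366 ± 220 and 6.74 ± 3.38 (SD, n = 3 each), so that Tlx3cko DRGs kept 1.84% of the control level (log2 fold change -5.80, SE 0.52, edgeR adjusted p = 2.88e-05). Against control library 3 alone, the control with Y-linked reads like the mutants, the log2 fold change was -4.62. Neurotensin (Nts) had 65, 107 and 181 counts in the controls, as against 150, 6 and 61 in the mutants, which overlapped widely (log2 fold change -0.57, SE 0.56). Leaving out Tlx3cko library 1 or 2 moved that value to -1.60 or -0.07, so no direction can be given for Nts.

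**Figure D2:**
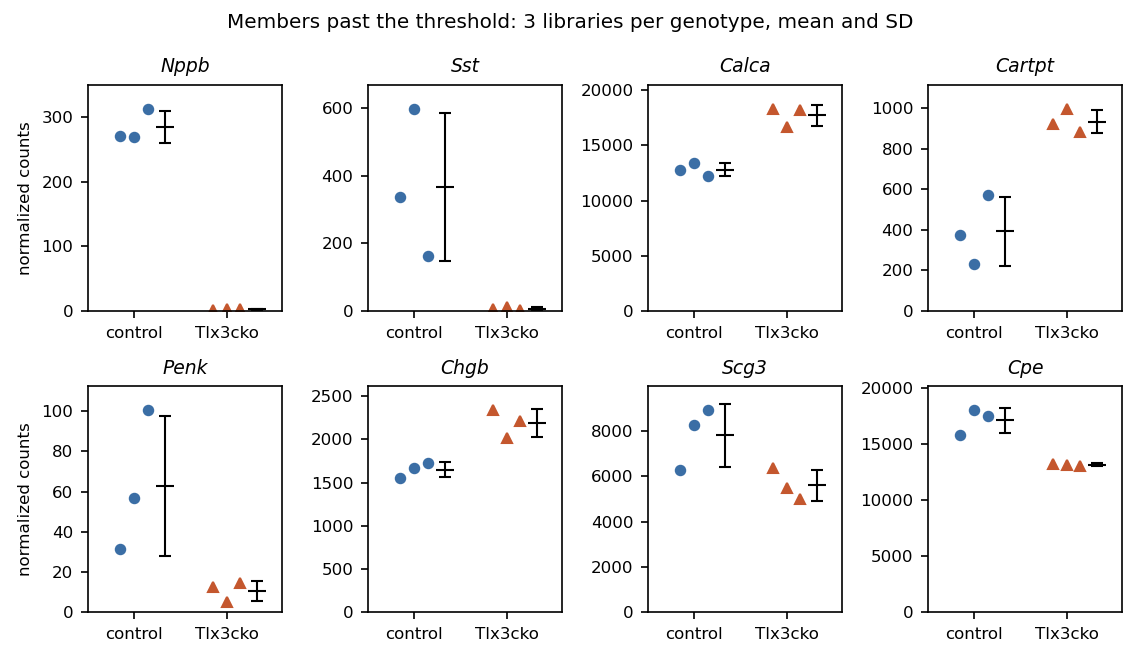
Normalized counts of the 8 members past the threshold, with 1 linear axis from 0 for each gene. Points are the 3 control (circles) and 3 Tlx3cko (triangles) libraries, in the order of their replicate numbers, and the bars beside them are the mean and SD. Scg3 is the only gene of the 8 in which the groups overlap, at 6257 in control library 1 and 6347 in Tlx3cko library 1.

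In the CGRP family, Calca rose and its relative Calcb gave no call. Calca (ENSMUSG00000030669, chromosome 7, 114631478 to 114636357, minus strand) encodes CGRP alpha and, by alternative splicing, calcitonin, which counts per gene do not separate. It had 11824, 13461 and 15362 counts in controls against 19035, 12685 and 18512 in mutants. Tlx3cko library 2 had the lowest total, and after normalization the values were 12760, 13430 and 12250 against 18320, 16650 and 18220. Every Tlx3cko value thus exceeded every control value, and the mean rose from 12810 ± 587 to 17730 ± 939 normalized counts (SD, n = 3 each), to 138% of control (log2 fold change 0.47, SE 0.07, edgeR adjusted p = 0.00144). Calcb, the gene of CGRP beta, had 1172, 1741 and 1874 counts in the controls, as against 1684, 932 and 1307 in the mutants. Its means of 1499 ± 236 and 1377 ± 214 normalized counts differed by less than their SDs (log2 fold change -0.12, 95% interval -0.40 to 0.15). The number of Calca counts for each Calcb count was 10.1, 7.73 and 8.20 in controls and 11.3, 13.6 and 14.2 in mutants, without overlap. Adrenomedullin (Adm), a vasodilator of the same family, had between 6 and 17 counts per library and was not called (log2 fold change 0.33, SE 0.62), and amylin (Iapp) had 0 in all libraries.

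Tac1, which encodes substance P and neurokinin A, missed the threshold narrowly. Counts of 1100, 1633 and 2416 were seen in controls and 2843, 1595 and 2167 in mutants. After normalization all 3 Tlx3cko values (2736, 2093 and 2133) lay above the highest control value of 1927. The log2 fold change was 0.55 (SE 0.15, edgeR adjusted p = 0.0611). The test passed without control library 3 (edgeR adjusted p = 0.0222), whereas against control library 3 alone the log2 fold change was 0.27. The other tachykinin genes, Tac2 and Tac4, had 2 counts each in all.

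Among galanin, neuropeptide Y, cholecystokinin and CART, the gene of CART rose. Cartpt (ENSMUSG00000021647, chromosome 13, 99898489 to 99901091, minus strand) encodes cocaine- and amphetamine-regulated transcript peptides. It had 349, 232 and 714 counts in controls against 956, 760 and 899 in mutants. The normalized counts were 377, 231 and 570 against 920, 997 and 885, with a wide spread among controls and a narrow one among mutants. The mean was 393 ± 170 in control and 934 ± 57.6 in Tlx3cko DRGs (SD, n = 3 each), 238% of control (log2 fold change 1.24, SE 0.22, edgeR adjusted p = 0.00581). Control library 3 had the highest control value, and against it alone the log2 fold change was 0.71. A fit with a term for sex rests on the same contrast and gave 0.71 as well, with an adjusted p of 0.143 (edgeR). For Cartpt the share of the rise that goes with the sex imbalance therefore cannot be told apart.

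Galanin (Gal), a peptide known to rise after nerve injury, had 224, 303 and 342 counts in the controls, as against 564, 185 and 303 in the mutants. Its log2 fold change of 0.41 (SE 0.24) did not pass the threshold, and without Tlx3cko library 1 it was -0.01. Npy, the neuropeptide Y gene, had 2, 2 and 8 counts in controls against 158, 8 and 0 in mutants. The fitted log2 fold change of 3.85 (SE 1.25, edgeR adjusted p = 0.125) rested on Tlx3cko library 1 alone and was 0.43 without it, and it passed only without Tlx3cko library 3, whose count was 0, or with no filter on low counts (edgeR adjusted p = 0.0144 and 6.45e-13). Gal and Npy were thus both highest in the same Tlx3cko library. Cck, the gene of cholecystokinin, had at most 4 counts in any library.

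Among the opioid and melanocortin precursors, Penk fell. Penk (ENSMUSG00000045573, chromosome 4, 4133531 to 4138819, minus strand) encodes the precursor of the enkephalins. It had 29, 57 and 126 counts in the controls, as against 13, 4 and 15 in the mutants, all lower than any control. The means were 62.9 ± 35.0 and 10.8 ± 4.97 normalized counts (SD, n = 3 each), and Tlx3cko DRGs kept 17.2% of the control level (log2 fold change -2.50, SE 0.47, edgeR adjusted p = 0.00782). Without control library 3, which held the most Penk, the log2 fold change was -1.98 and the call was lost (edgeR adjusted p = 0.0572). The gene A830012C17Rik lies on the other strand over 14.3% of the exonic bases of Penk and matches 157 bases of it at 98% identity or more, so part of these counts may belong to that gene. Pnoc, the precursor of nociceptin, had 6, 3 and 6 counts in controls against 1, 2 and 2 in mutants, and this difference did not pass the threshold (log2 fold change -1.34, SE 0.93, edgeR adjusted p = 0.599). Pomc, the precursor of melanocortins and beta-endorphin, had between 10 and 23 counts per library, with overlap (log2 fold change -0.32, SE 0.47). Pdyn, the dynorphin precursor, had at most 7 counts in any library.

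The remaining precursors gave no call. Nmb, whose product neuromedin B acts on spinal neurons, was the most abundant of them per kb, with 873, 893 and 966 counts in the controls, as against 928, 567 and 775 in the mutants. Its means of 868 ± 88.1 and 800 ± 81.2 normalized counts overlapped (log2 fold change -0.11, 95% interval -0.35 to 0.12), and Sec11a on the same strand covers 20.6% of its exonic bases. Adcyap1, the gene of PACAP, averaged 745 ± 15.3 normalized counts in controls and 670 ± 77.0 in mutants (log2 fold change -0.15, 95% interval -0.38 to 0.07). Pthlh, which encodes parathyroid hormone-related protein, had 25, 16 and 34 counts in controls against 56, 30 and 39 in mutants, higher in all 3 after normalization (log2 fold change 0.91, SE 0.34, edgeR adjusted p = 0.201). Nucb2, the nesfatin precursor, averaged 108 ± 32.2 normalized counts in controls and 79.5 ± 2.91 in mutants, with overlap (log2 fold change -0.46, SE 0.24). Vip, Npff and Crh had at most 10 counts in any library and were not called.

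Summed over the peptide precursors, the read counts were higher in Tlx3cko DRGs, and this came mostly from Calca. The sum was 18460, 20150 and 19000 normalized counts in controls against 26330, 22920 and 24470 in mutants, without overlap (two-sided exact permutation p = 0.1, the lowest that 3 against 3 can reach). Calca made up 66.7% ± 2.33 of it in control and 72.2% ± 2.46 in Tlx3cko DRGs (SD, n = 3 each). Without Calca the sums were 6391 ± 602 and 6847 ± 1007 and overlapped (two-sided exact permutation p = 0.6). These are sums of reads, in which long transcripts weigh more than short ones.

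The granins, which load and form dense-core vesicles, did not move together. Chgb (ENSMUSG00000027350, chromosome 2, 132781278 to 132795079, plus strand), the chromogranin B gene, had 1439, 1677 and 2163 counts in the controls, as against 2428, 1536 and 2252 in the mutants. It rose from 1650 ± 88.2 to 2190 ± 162 normalized counts without overlap (SD, n = 3 each), to 133% of control (log2 fold change 0.41, SE 0.08, edgeR adjusted p = 0.0130). The call was lost with a term for sex (log2 fold change 0.34, edgeR adjusted p = 0.241) and without Tlx3cko library 3 (edgeR adjusted p = 0.067). Against control library 3 alone, the same contrast that the sex term leaves, the log2 fold change of Chgb was 0.34 as well. Scg3 (ENSMUSG00000032181, chromosome 9, 75643189 to 75684056, minus strand) encodes secretogranin III, which binds chromogranin A and vesicle membranes. It had 5797, 8271 and 11160 counts in controls against 6595, 4174 and 5076 in mutants, and fell from 7803 ± 1378 to 5607 ± 685 normalized counts, with the overlap of the replicate 1 libraries described above (log2 fold change -0.48, SE 0.12, edgeR adjusted p = 0.0436). This was the least stable of the 8 calls. It was lost when Tlx3cko library 2 or 3 or control library 2 or 3 was left out (edgeR adjusted p = 0.184, 0.191, 0.163 and 0.169). Against control library 3 alone the log2 fold change of Scg3 was -0.67.

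Chga, the chromogranin A gene, had 2627, 2597 and 3292 counts in the controls, as against 3187, 2563 and 3414 in the mutants. Its normalized counts of 2835, 2590 and 2626 against 3067, 3363 and 3360 did not overlap, but the log2 fold change of 0.28 (SE 0.08) missed the threshold (edgeR adjusted p = 0.0573). It passed when control library 1 or Tlx3cko library 1 was left out (edgeR adjusted p = 0.0458 and 0.0418). Scg2 had 3923, 4654 and 7241 counts in controls against 5814, 4117 and 4959 in mutants, and Vgf, a granin-like precursor induced by neurotrophins, had 3180, 5470 and 5885 against 6069, 2824 and 4229. Both overlapped after normalization, with log2 fold changes of 0.12 (SE 0.10) for Scg2 and 0.01 (SE 0.17) for Vgf. Scg5, which encodes the chaperone of the convertase Pcsk2, had 754 ± 72.4 and 731 ± 45.2 normalized counts (SD, n = 3 each; log2 fold change -0.04, 95% interval -0.27 to 0.18).

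**Figure D3:**
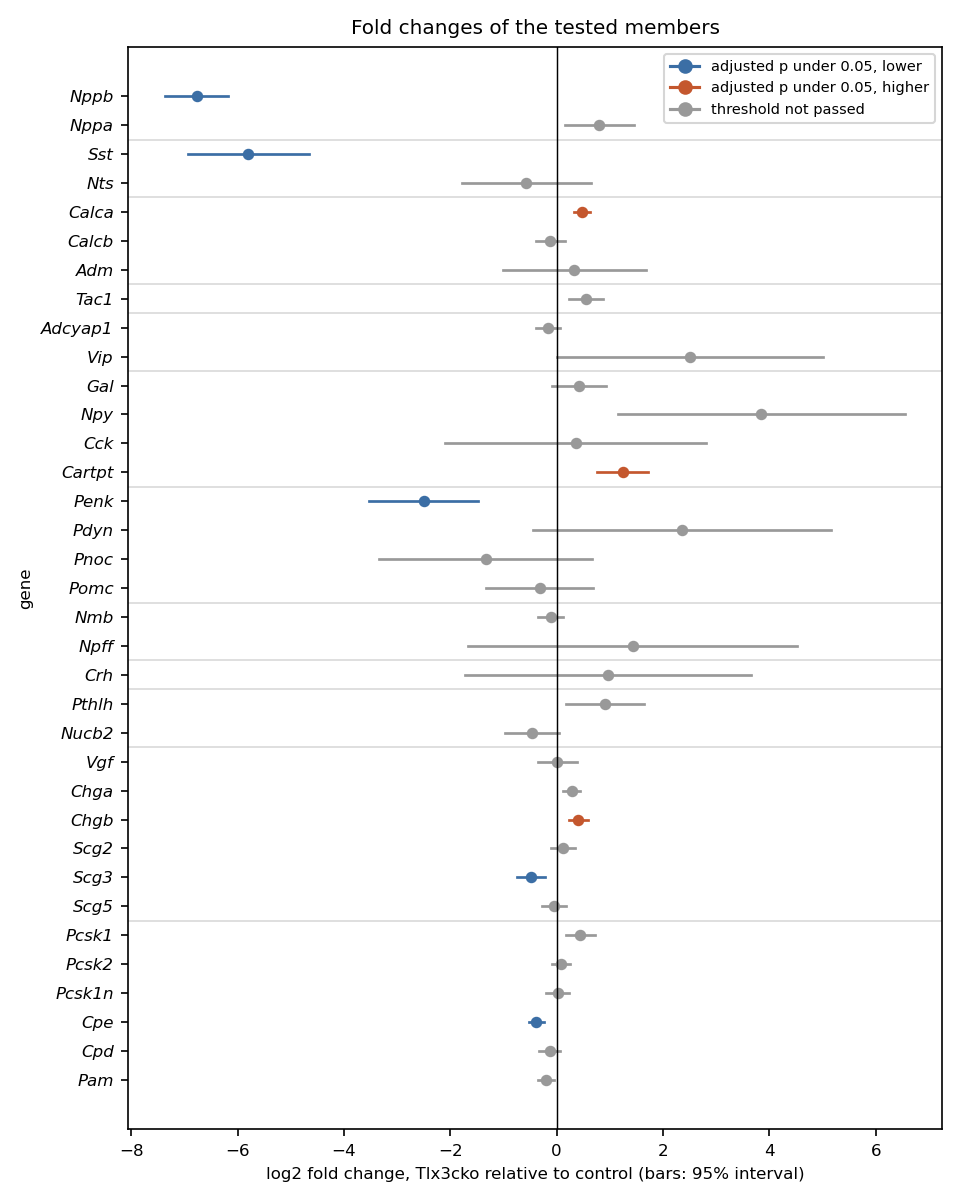
Log2 fold changes of the 35 tested members, Tlx3cko relative to control, with 95% intervals from the edgeR fit and genes ordered by role. Colour marks the 5 members called lower, the 3 called higher and those that did not pass the threshold. Intervals of the granins and processing genes are narrow and lie within 1 log2 unit of 0, while those of the rare precursors are wide.

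Of the processing genes, Cpe fell. Cpe (ENSMUSG00000037852, chromosome 8, 64592542 to 64693054, minus strand) encodes carboxypeptidase E, which removes basic residues from the ends of cut peptides. It had 14662, 18033 and 21884 counts in the controls, as against 13763, 10025 and 13237 in the mutants. The normalized counts were 15830, 17990 and 17460 against 13250, 13150 and 13030, so the mutants were close to each other and below every control. The mean fell from 17090 ± 1126 to 13140 ± 110.0 (SD, n = 3 each), to 76.9% of control (log2 fold change -0.38, SE 0.07, edgeR adjusted p = 0.00593). The ratio of Calca to Cpe reads was 0.806, 0.747 and 0.702 in controls and 1.38, 1.27 and 1.40 in mutants. The most abundant precursor and this carboxypeptidase thus moved in opposite directions in the same libraries.

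The convertases that cut the precursors differed less. Pcsk1, the gene of prohormone convertase PC1/3, had 641, 525 and 739 normalized counts in controls against 810, 949 and 841 in mutants, higher in all 3 mutants (log2 fold change 0.44, SE 0.12, edgeR adjusted p = 0.0682). Without control library 3 it passed (edgeR adjusted p = 0.0299), whereas against control library 3 alone the log2 fold change was 0.23. With a sex term, which leaves the same contrast, it was 0.23 as well (edgeR adjusted p = 0.686). Pcsk2, the gene of PC2, had 3125 ± 272 and 3318 ± 98.8 (SD, n = 3 each), with overlap (log2 fold change 0.09, 95% interval -0.09 to 0.26). The ratio of Pcsk1 to Pcsk2 reads was 0.202 ± 0.0184 in control and 0.262 ± 0.0301 in Tlx3cko DRGs (SD, n = 3 each), without overlap. Pcsk1n had 19732, 19164 and 19165 counts in controls against 19899, 13782 and 19664 in mutants. Its normalized means of 18570 ± 3042 and 18860 ± 681 differed by less than the spread between controls (log2 fold change 0.02, 95% interval -0.19 to 0.24). Cpd, another carboxypeptidase, had a log2 fold change of -0.13 (95% interval -0.32 to 0.06), with overlap. Pam, the amidating enzyme needed for CGRP and substance P, had 2677, 2675 and 2541 normalized counts in controls against 2376, 2286 and 2215 in mutants, lower in all 3 mutants, but the log2 fold change of -0.20 (SE 0.07) did not pass the threshold (edgeR adjusted p = 0.194).

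The 8 calls were compared with the sex imbalance in view. Control libraries 1 and 2 were the only ones of the other sex. With a term for sex, the genotype difference therefore rested on control library 3 against the mutants. The other controls added only to the estimate of spread, so this fit is no check beyond 1 control library. In it Cartpt and Chgb were lost (edgeR adjusted p = 0.143 and 0.241), while Nppb, Sst, Calca, Penk, Scg3 and Cpe passed the threshold. Against control library 3 alone, the spread of that single control had to be taken from the mutants. The SD was larger in controls than in mutants for Cartpt (170 and 57.6) and Cpe (1126 and 110), and smaller for Chgb (88.2 and 162). Only effect sizes are therefore given for that fit, except where all alternative fits are counted together. The log2 fold changes were -6.91 for Nppb, -4.62 for Sst, 0.53 for Calca, 0.71 for Cartpt, -3.16 for Penk, 0.34 for Chgb, -0.67 for Scg3 and -0.41 for Cpe. Nppb, Sst, Calca and Cpe passed in all 14 alternative fits, which changed the normalization, the test, the filter, the covariates or the libraries used. The largest adjusted p among these fits was 5.18e-05 for Nppb and 0.0319 for Sst, both with limma-voom. It was 0.0146 for Calca and 0.0479 for Cpe, both in edgeR fits without 1 library.

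Receptors for these peptides differed in both directions. Of 52 receptor genes listed, 51 had a row and 43 were tested, with 4 lower and 5 higher in Tlx3cko DRGs past the threshold (edgeR), 20.9% of those tested, where 4.25% of all genes tested were called, 2.56% lower and 1.69% higher. Their median log2 fold change was 0.23.

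Among the receptors for somatostatin, Sstr2 fell and Sstr1 rose. Sstr2 had 78, 96 and 160 counts in the controls, as against 33, 30 and 20 in the mutants, and fell to 29.5% of control (log2 fold change -1.78, SE 0.29, edgeR adjusted p = 0.00301). Sstr1 had 55, 35 and 25 counts in controls against 166, 73 and 151 in mutants, and rose to 354% of control (log2 fold change 1.85, SE 0.34, edgeR adjusted p = 0.00611). Counts of Sstr1 for each count of Sstr2 were 0.705, 0.365 and 0.156 in controls and 5.03, 2.43 and 7.55 in mutants. Neither receptor's groups overlapped, and both calls held in all 14 alternative fits. Sstr3 and Sstr4 had between 6 and 54 counts per library and overlapped.

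The neuropeptide Y receptor gene Npy2r, which encodes the Y2 receptor, had 419, 413 and 572 counts in the controls, as against 78, 90 and 118 in the mutants. It fell to 23.4% of control with tight replicates (log2 fold change -2.10, SE 0.17, edgeR adjusted p = 1.32e-05). Npy1r overlapped (log2 fold change -0.10, SE 0.25). Prokr2, a receptor of prokineticins, had 123, 102 and 179 counts in controls against 58, 33 and 57 in mutants (log2 fold change -1.27, SE 0.22, edgeR adjusted p = 0.00469), and Cckar, a cholecystokinin receptor, fell to 60.0% of control (log2 fold change -0.74, SE 0.14, edgeR adjusted p = 0.00935). The call of Cckar was lost without control library 2 or Tlx3cko library 2, with a highest adjusted p of 0.058 (edgeR). The ligand genes of these receptors, Npy, Prok2 and Cck, were scarce or uneven in the DRG libraries.

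Among the opioid receptors, Oprl1, which encodes the nociceptin receptor, rose. It had 239, 249 and 342 counts in the controls, as against 594, 465 and 622 in the mutants, 230% of control after normalization (log2 fold change 1.20, SE 0.11, edgeR adjusted p = 2.95e-05). Oprd1, the delta opioid receptor that binds enkephalins, had 263, 229 and 323 counts against 443, 358 and 380 (log2 fold change 0.72, SE 0.13, edgeR adjusted p = 0.00693). This call was lost with the sex term. The mu receptor Oprm1 and the kappa receptor Oprk1 overlapped, with log2 fold changes of 0.26 (SE 0.32) and -0.11 (SE 0.29). Penk, whose products bind Oprd1, thus fell while the receptor gene rose. The receptors for neuropeptide FF were also called higher, from few counts. Npffr2 had 12, 0 and 8 counts in controls against 55, 33 and 53 in mutants (log2 fold change 2.94, SE 0.61, edgeR adjusted p = 0.0145), and Npffr1 had 10, 5 and 6 against 21, 28 and 44 (log2 fold change 2.29, SE 0.50, edgeR adjusted p = 0.0201). Neither of these 2 calls held in every alternative fit, with 10 of 14 for Npffr2 and 8 of 14 for Npffr1. Control library 3 and Tlx3cko library 3 were needed for both, as were Tlx3cko library 1 for Npffr2 and control library 2 and Tlx3cko library 2 for Npffr1. Both calls were also lost with the sex term.

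**Figure D4:**
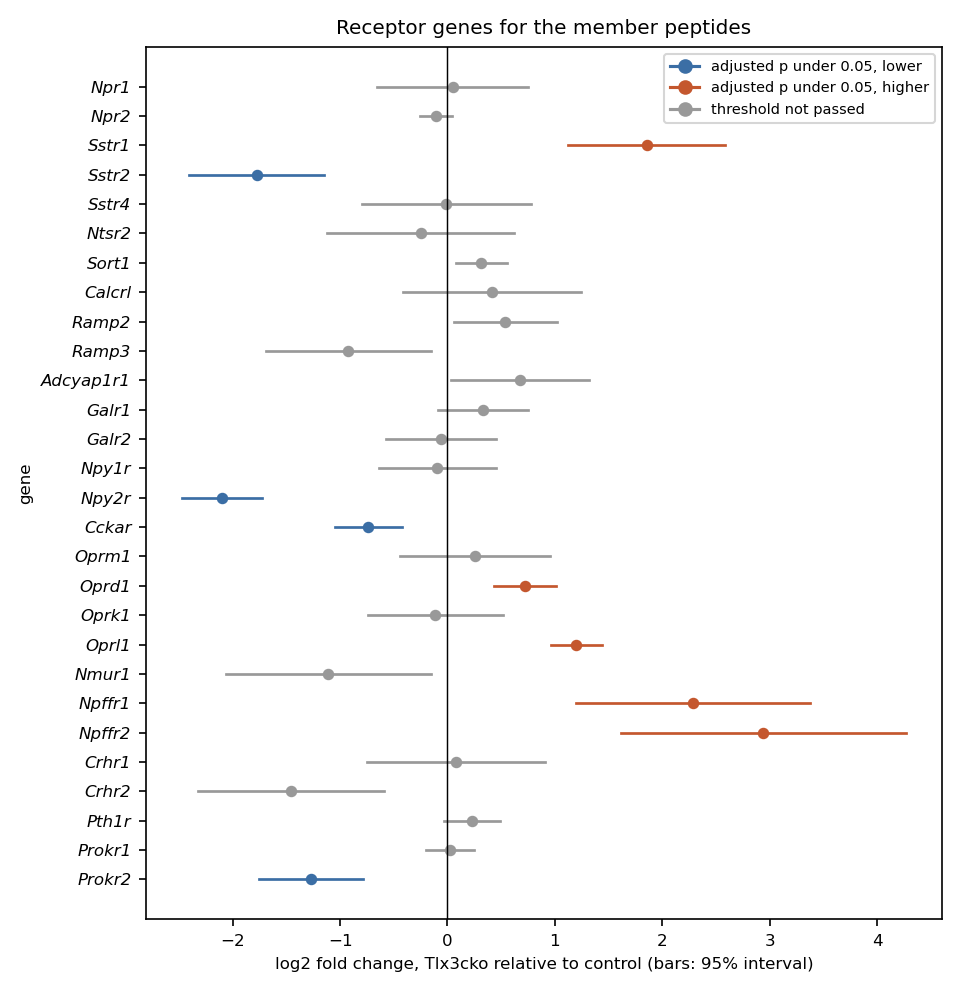
Log2 fold changes of the 28 receptor genes with at least 100 counts in total, Tlx3cko relative to control, with 95% intervals from the edgeR fit. Colour marks genes called lower, called higher or not past the threshold. Sstr1 and Sstr2 lie on opposite sides of 0, as do Npy2r and Oprl1, and the receptor genes Npr2, Prokr1 and Pth1r lie near 0.

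The receptors of the precursors that moved most did not all move with them. Npr1, the receptor for natriuretic peptides, had between 27 and 65 counts per library (log2 fold change 0.05, SE 0.32), and Npr2 had a log2 fold change of -0.11 (SE 0.07). Calcrl, Ramp1, Ramp2 and Ramp3, which make up the receptors for CGRP and adrenomedullin, gave no call, with log2 fold changes between -0.92 for Ramp3 and 0.54 for Ramp2. Tacr1, the substance P receptor, had at most 10 counts in any library.

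Of the 15 dense-core vesicle genes, all tested, 2 fell past the threshold (edgeR), 13.3% of the list, where 4.25% of all genes tested were called and 2.56% called lower, and the median log2 fold change was 0.06. Syt7, a calcium sensor of vesicle release, had 5404, 5607 and 6174 normalized counts in controls against 2900, 2901 and 2704 in mutants, and fell to 49.5% of control with replicates very close to each other (log2 fold change -1.02, SE 0.08, edgeR adjusted p = 6.87e-06). Syt9 fell to 76.5% (log2 fold change -0.39, SE 0.08, edgeR adjusted p = 0.0119), a call lost without control library 3 or Tlx3cko library 2 or 3. The other genes of this list lay between -0.47 for Rab27b, which missed the threshold (edgeR adjusted p = 0.0552), and 0.19 for Dmxl2. Ptprn and Cadps, among the most counted of them, had log2 fold changes of 0.06 (SE 0.08) and 0.07 (SE 0.08).

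Among the other convertases and peptidases, a list of 20 genes with a median log2 fold change of -0.01, Mme rose. Mme encodes neprilysin, which degrades substance P and enkephalins outside the cell. It had 328, 234 and 215 counts in the controls, as against 554, 469 and 675 in the mutants, 239% of control (log2 fold change 1.27, SE 0.20, edgeR adjusted p = 0.00276), and the call held in all 14 alternative fits. Furin, Pcsk5, Pcsk6 and Pcsk7, the widely expressed convertases, gave no call.

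Of 35 other peptide precursors listed as not belonging to the 44 genes, 34 had a row and 13 were tested. Only 1 was called (edgeR), 7.69% of those tested, where 4.25% of all genes tested were called and 1.69% called higher. It was Edn3, the gene of the endothelin 3 precursor. Edn3 had 15, 14 and 6 counts in the controls, as against 322, 202 and 383 in the mutants. Its means were 11.7 ± 6.05 and 317 ± 56.3 normalized counts (SD, n = 3 each), and the log2 fold change of 4.82 (SE 0.30, edgeR adjusted p = 1.97e-06) held in all 14 alternative fits. The other 12 had at most 95 counts in any library.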

How the data were processed

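DRG libraries of 3 control and 3 Tlx3cko mice were sequenced. The authors deposited 1 table with the raw count of reads on each gene in each library, and nothing in it was normalized. The submitters' processing notes name STAR 2.5.2a and the build mm10. The counting program and its use of strand are not given in the sources used here, and the NEBNext Ultra kit that the paper names was described without strand marking. Samples were grouped by the genotype in the labels, and the paper gives n = 3 mice for each genotype.

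Gene symbols and positions came from GENCODE M21 on GRCm38, to which 47224 of 47729 Ensembl identifiers matched. The 208 rows outside the annotation stayed in library sizes and tests. Genes with at least 10 counts in total were scaled by TMM factors and compared with edgeR 4.0.16 in R 4.3.3 (glmQLFit and glmQLFTest, 3 against 3, no covariates), and a gene was called where the p adjusted by Benjamini-Hochberg lay under 0.05. Standard errors are the fold change over the square root of F. Libraries totalled 11458299 to 18775628 counts, and TMM factors lay between 0.994 and 1.01. Replicates of a genotype differed by more than sampling noise (chi-square per degree of freedom 4.46 to 10.7). The scripts were tested on simulated counts.

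The members, the other gene lists and the markers were chosen with earlier results of these data known. Named with values in every library were the members past the threshold and the 10 members with the highest control level per kb of exon; of the other lists, genes past the threshold, and Tlx3. Further members are given by role, with library values for those that a result turned on, and some uncalled genes of the other lists were named after their values were seen. Some genes covered by this rule are not reported here. Ratios between 2 genes were chosen after their values were seen and are given with no test. Near-identical sequence was searched with blastn among annotated transcripts, and none of at least 100 bases and 98% identity was found for Nppb, Sst, Calca, Cartpt, Chgb, Scg3, Cpe, Calcb or Tac1. Promoter sequences are RefSeq's. Alternatives were DESeq2 1.42.0, limma-voom (limma 3.58.1), RLE scaling, 2 other filters, the replicate number as a block, a sex term, control library 3 as the only control, and each library left out in turn.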

Additional observations from a re-analysis of the deposited data

How the results depend on the processing

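Of 468 refitted values of single members, 426 kept their direction and side of the threshold, 11 fell short of it, 13 newly passed it and 18 changed sign, all of them in genes that were not called. The sex term and control library 3 as the only control both set the mutants against control library 3, so they are not separate checks. In these settings, in this order, the log2 fold changes became -0.14 in both for Crh, 0.0554 and 0.0539 for Nmb, -0.0454 and -0.0469 for Pcsk2, -0.126 and -0.128 for Scg2, and -0.0379 and -0.0395 for Vgf. Leaving out 1 library changed the sign for 6 genes, and the lowest and highest values were -0.0302 (without control replicate 3) and 1.01 for Adm, -0.153 (without control replicate 1) and 0.611 for Cck, -0.0056 (without Tlx3cko replicate 1) and 0.636 for Gal, -0.099 (without control replicate 3) and 0.131 for Pcsk1n, -0.0977 and 0.0319 (without control replicate 1; 0.0098 without Tlx3cko replicate 2) for Scg5, and -0.202 (without Tlx3cko replicate 1; -0.152 without control replicate 1) and 0.17 for Vgf. The cause was not tested.

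The number of members called was 8 in the fit described, 11 with DESeq2, 12 with no filter on low counts, 9 with filterByExpr and 8 with RLE scaling. It was 7 with limma-voom, 6 with the sex term, and between 7 and 9 with 1 library left out. Penk missed the threshold with limma-voom (adjusted p = 0.0505). DESeq2 also called Tac1, Chga and Pcsk1 (adjusted p = 0.00425, 0.0137 and 0.0169). Over all genes the 851 calls became 1529 with no filter, 487 with the sex term, 546 with control library 3 alone, and between 488 and 938 with 1 library left out, and the cause was not tested. The log2 fold change of Tlx3 was -0.38 with the sex term (edgeR adjusted p = 0.223) and in the same contrast with control library 3 alone. It lay between -0.54 and -0.39 with 1 library left out.

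With the replicate number as a block, 7 members and 770 genes were called, and Scg3 was lost (edgeR adjusted p = 0.0618). Correlations of same-numbered libraries, taken on their deviations from the genotype mean, were -0.13, -0.01 and -0.12. They gave no sign that the numbers pair the samples, but 3 libraries per genotype are too few to exclude it. The 14 calls of the other lists stayed between 10 and 18. Depth sets the precision for the rarest members: 8 tested members had under 30 counts in every library, and none of these was called in any fit run.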
